A study of Mus musculus with 24 samples.

Results

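The genes of DNA methylation and its removal were followed across the first 12 h after fertilization in single mouse cells. The set held 10 genes, chosen by symbol in the platform annotation: the methyltransferases Dnmt1, Dnmt3a and Dnmt3b, the cofactors Uhrf1 and Dnmt3l, the oxidases Tet1, Tet2 and Tet3, the glycosylase Tdg, and Dppa3. They had 18 probes among the 41174 on the arrays and were 10 of 19532 genes with a probe of their own. The measured cells were B6D2F1 mouse oocytes at the second meiotic metaphase (MII, 0 h) and embryos at the 1-cell stage, collected at 2, 4, 6, 8, 10 or 12 h after a sperm was injected into the oocyte (intracytoplasmic sperm injection, ICSI). B6D2F1 is a hybrid strain, and the sperm came from B6D2F1 males aged 8 to 12 weeks. All embryos came from ICSI, so the injection, the sperm and the time in culture cannot be told apart in a comparison with oocytes. The oocyte group and the 2, 6 and 8 h groups had 3 cells each, and the 4, 10 and 12 h groups had 4 each. Every cell was amplified alone and put on an array of its own, and these 24 arrays limit the precision. The series' design text calls them biological replicates, but no label ties a cell to an animal, so a p-value reflects only how much these single cells differ.

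In mammals, cytosine followed by guanine (CpG) carries most DNA methylation. Dnmt1, brought to newly copied DNA by Uhrf1, restores methylation after replication, while Dnmt3a and Dnmt3b, helped by Dnmt3l, place it on unmethylated DNA. Tet enzymes oxidize 5-methylcytosine, and Tdg excises the most oxidized forms. In the mouse zygote the sperm-derived genome gains oxidized cytosine, made by Tet3 that the oocyte supplies, while Dppa3 (also called Stella or PGC7) protects the maternal genome from this oxidation. Here mRNA was measured, not methylation or protein. The mRNA was captured on oligo-dT beads, so the amount of an mRNA and the length of its poly(A) tail cannot be told apart.

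Values are log2 intensities, where 1 unit is a doubling. The most common value on the arrays was 6.85, taken as the background, and the scale ran from 5.69 to 15.86. A change of a gene near the background is understated, and spots at the top of the scanner's range could not be told from others. Levels are compared between cells for 1 probe. Probes of the same gene are set against each other only as a difference on 1 array, itself compared between cells. The oocyte arrays resembled each other most, with Pearson correlations across probes of 0.93 to 0.94, against 0.82 to 0.91 among embryos of 1 time. A count of embryos above or below every oocyte depends on how close together the oocytes lay. Its share over all probes is given only for probes with every 12 h embryo on 1 side. All 14 oocyte markers listed, such as Gdf9 and Zar1, had a mean over 2 units above background. Of 13 measured markers of cumulus and granulosa cells, 10 were within 1 unit of background, among them Foxl2, Fshr and Inha, while Amh and Kitl were over 2 units above it. Of 12 markers of sperm and spermatids, 5 were over 2 units above background (Prm1, Prm2, Tnp2, Odf2 and Gapdhs), and of 6 blood markers 1, Hbb-bt. These are means over all arrays. In the oocytes, which held no injected sperm, Prm1 averaged 11.38, Prm2 8.25, Tnp2 9.34, Odf2 12.54 and Gapdhs 11.80.

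Of the 10 genes, 7 had a probe with a mean over 2 units above background, namely Dnmt1, Uhrf1, Dnmt3a, Dnmt3b, Dnmt3l, Dppa3 and Tet3. These were 11 of the 18 probes, where 28.9% of all probes reached that level, and 9 of the 11 did so on each of the 24 arrays. The 3 probes of Tet2 and 1 of the 2 probes of Tdg had means under 1 unit above background. Tet1, the other Tdg probe and the third Dnmt3a probe lay between. The RefSeq annotation of the GRCm38.p6 assembly places Dnmt1 on chromosome 9, Uhrf1 on chromosome 17, Dnmt3a on chromosome 12, Dnmt3b on chromosome 2, Tet2 on chromosome 3 and Tet3 on chromosome 6. Dnmt3l, Tet1 and Tdg all lie on chromosome 10. The position of the probes within these genes was not used here.

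Several members are annotated with more than 1 start, and for Dnmt1 and Dnmt3a the outermost ones lie 7265 and 84764 bases apart. Promoter windows of 9 of the 10 genes were found in the RefSeq table. The 250 bases before the outermost starts of these 2 genes, of 3 windows each, are shown. Probe positions were not used, so the start an mRNA came from is not known here. CpG pairs (in capitals, counted as CG on either strand) are what these enzymes act on. The window before the most upstream Dnmt1 start (GRCm38.p6, chr9:20959889-20960138, minus strand) held 2 CpG pairs, and that before the most downstream start (chr9:20952624-20952873, minus strand) held 26. The window before the first Dnmt3a start (chr12:3806730-3806979, plus strand) held 38 and that before the last (chr12:3891494-3891743, plus strand) held 15. The windows between them, not shown, held 7 pairs in Dnmt1 and 40 in Dnmt3a. The median over 32851 such windows was 6, and 81.2%, 9.59%, 1.88% and 27.3% of them held at least as many CpG pairs as the 4 shown, in that order.
Dnmt1 upstream start: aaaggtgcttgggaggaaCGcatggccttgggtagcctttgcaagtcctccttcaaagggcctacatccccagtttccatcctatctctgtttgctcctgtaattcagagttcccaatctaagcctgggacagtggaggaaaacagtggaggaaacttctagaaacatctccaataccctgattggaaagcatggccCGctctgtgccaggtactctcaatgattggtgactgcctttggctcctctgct
Dnmt1 downstream start: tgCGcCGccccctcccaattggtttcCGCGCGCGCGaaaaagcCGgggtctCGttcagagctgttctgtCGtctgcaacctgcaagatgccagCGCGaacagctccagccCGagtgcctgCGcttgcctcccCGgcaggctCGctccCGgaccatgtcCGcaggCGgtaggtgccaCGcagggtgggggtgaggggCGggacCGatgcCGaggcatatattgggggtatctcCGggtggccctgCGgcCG
Dnmt3a first start: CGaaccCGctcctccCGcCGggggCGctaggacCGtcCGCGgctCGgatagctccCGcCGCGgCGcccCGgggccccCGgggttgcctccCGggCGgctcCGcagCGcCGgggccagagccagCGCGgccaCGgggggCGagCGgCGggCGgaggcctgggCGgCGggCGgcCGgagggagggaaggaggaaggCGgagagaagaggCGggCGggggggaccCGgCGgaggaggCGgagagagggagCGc
Dnmt3a last start: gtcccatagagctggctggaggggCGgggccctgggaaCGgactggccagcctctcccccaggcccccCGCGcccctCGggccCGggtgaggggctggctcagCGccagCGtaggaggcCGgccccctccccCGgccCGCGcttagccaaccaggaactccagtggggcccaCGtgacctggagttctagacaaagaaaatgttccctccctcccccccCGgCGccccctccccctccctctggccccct

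None of the 18 probes passed the threshold of a Benjamini-Hochberg adjusted p under 0.05 in any of 13 comparisons fitted with limma over all 41174 probes. These were each embryo time against 0 h, each embryo time against the one before it, all embryos against oocytes, and late (10 and 12 h) against early (2 and 4 h) embryos. Over all probes, 0.996% were called at 12 h against 0 h, 0.765% in all embryos against oocytes and 0.515% in late against early embryos, so 0 of 18 lies near that background. At 2, 4, 6, 8 and 10 h against 0 h the background was 0.102%, 0.0777%, 0.0534%, 0.695% and 0.444%, and between consecutive embryo times it was 0.0583%, 0.0437%, 0.0291%, 0.0923% and 0.034%. In limma's F-test over the 7 times 0 of 18 were called too, with 0.894% of all probes called and a lowest adjusted p of 0.251. In that test 3 of the 18 probes had an unadjusted p under 0.05, and the share of all probes at that level was not computed. At an unadjusted p under 0.05, 24 of the 234 pairs of a probe and a comparison passed, or 10.3%, where between 7.50% and 12.7% of all probes did so in single comparisons. The counts at that level were 4 of 18 at 12 h against 0 h, 3 in all embryos and 3 in late against early embryos. Over all probes the shares were 11.9%, 9.60% and 11.3%, in that order. The levels, intervals and spreads of the members are therefore given as measured, and no member is said to have risen or fallen.

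Dnmt1, the maintenance methyltransferase, was measured by 1 probe (A_51_P195573) and had the largest difference of means between oocytes and 12 h embryos among the members. Its log2 intensity was 13.51, 13.72 and 14.49 in the 3 oocytes, and 11.92, 10.61, 10.73 and 13.19 in the 4 embryos of 12 h. Every 12 h embryo lay below every oocyte, and 1 of them stood closer to the oocytes than to the other 3. The mean was 13.90 ± 0.51 (SD, n = 3) at 0 h and 11.61 ± 1.21 (SD, n = 4) at 12 h, a log2 change of -2.29 with a 95% interval of -3.66 to -0.92, or 0.204 of the oocyte level, which missed the threshold (limma, adjusted p = 0.109). Across the alternative settings of the fit on log2 intensity the adjusted p ran from 0.0171 to 0.330, and 3 of 33 settings called it. Without 12 h replicate d, the embryo at 13.19, the change was -2.82 (adjusted p = 0.0393), and without 6 h replicate b, which enters the spread and not the difference, the adjusted p was 0.0292.

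Between these ends the Dnmt1 levels followed no steady course. At 2 h the 3 embryos had 13.37, 13.90 and 13.61, within or just below the oocyte range. At 4 h they had 12.21, 13.98, 13.07 and 12.51, and at 6 h 13.30, 10.30 and 13.80, so that 1 embryo of 6 h held the lowest level of all 24 cells. At 8 h all 3 were below every oocyte, with 12.55, 11.58 and 12.28, while the 4 embryos of 10 h were back at 13.09, 13.51, 13.74 and 13.21. In order of the mean, 0 h was followed by 2, 10, 4, 6, 8 and 12 h, and each step in that order was smaller than the larger SD of its 2 neighbours. In all, 16 of 21 embryos were below every oocyte and 0 above, and the embryos together differed from oocytes by -1.21 (95% interval -2.32 to -0.10, limma, adjusted p = 0.452). The step from 10 h to 12 h was -1.77 (95% interval -3.04 to -0.50, adjusted p = 0.424). The mean over the 14 oocyte markers was 13.52 to 13.73 in the oocytes and 12.33 to 13.19 at 12 h, so this mean too was lower at 12 h. Single markers differed. Over all embryos Mos averaged 12.03 against 15.20 in oocytes, while Padi6 averaged 13.21 against 12.51 and Ooep 14.91 against 14.67. Btg4 and Npm2 also averaged higher in embryos, and the other markers averaged lower. The part of the markers in the Dnmt1 values was not tested.

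Uhrf1, which binds hemimethylated CpG and recruits Dnmt1, stayed within a narrow band. Its probe A_52_P314705 had 14.60, 14.53 and 14.96 in the oocytes and 14.91, 14.62, 14.54 and 14.51 at 12 h. The groups overlapped, and the log2 change was -0.06 with a 95% interval of -0.40 to 0.29, a range from 0.757 to 1.22 times the oocyte level. Its highest group mean was 14.94 ± 0.27 (SD, n = 4) at 10 h and its lowest 14.48 ± 0.24 (SD, n = 3) at 2 h. The other probe, A_51_P491742, had 13.15, 13.15 and 13.51 in the oocytes, and 14 of 21 embryos were above all of them, with 1 below. All embryos together differed by 0.33 on this probe (95% interval -0.02 to 0.67, limma, adjusted p = 0.554), and the 10 h embryos by 0.60 (95% interval 0.18 to 1.02, adjusted p = 0.265). Thus Dnmt1 and the factor that recruits it had unlike intervals at 12 h: that of Dnmt1 lay below 0 and that of each Uhrf1 probe included 0. This difference between the genes was not tested.

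**Figure D1:**
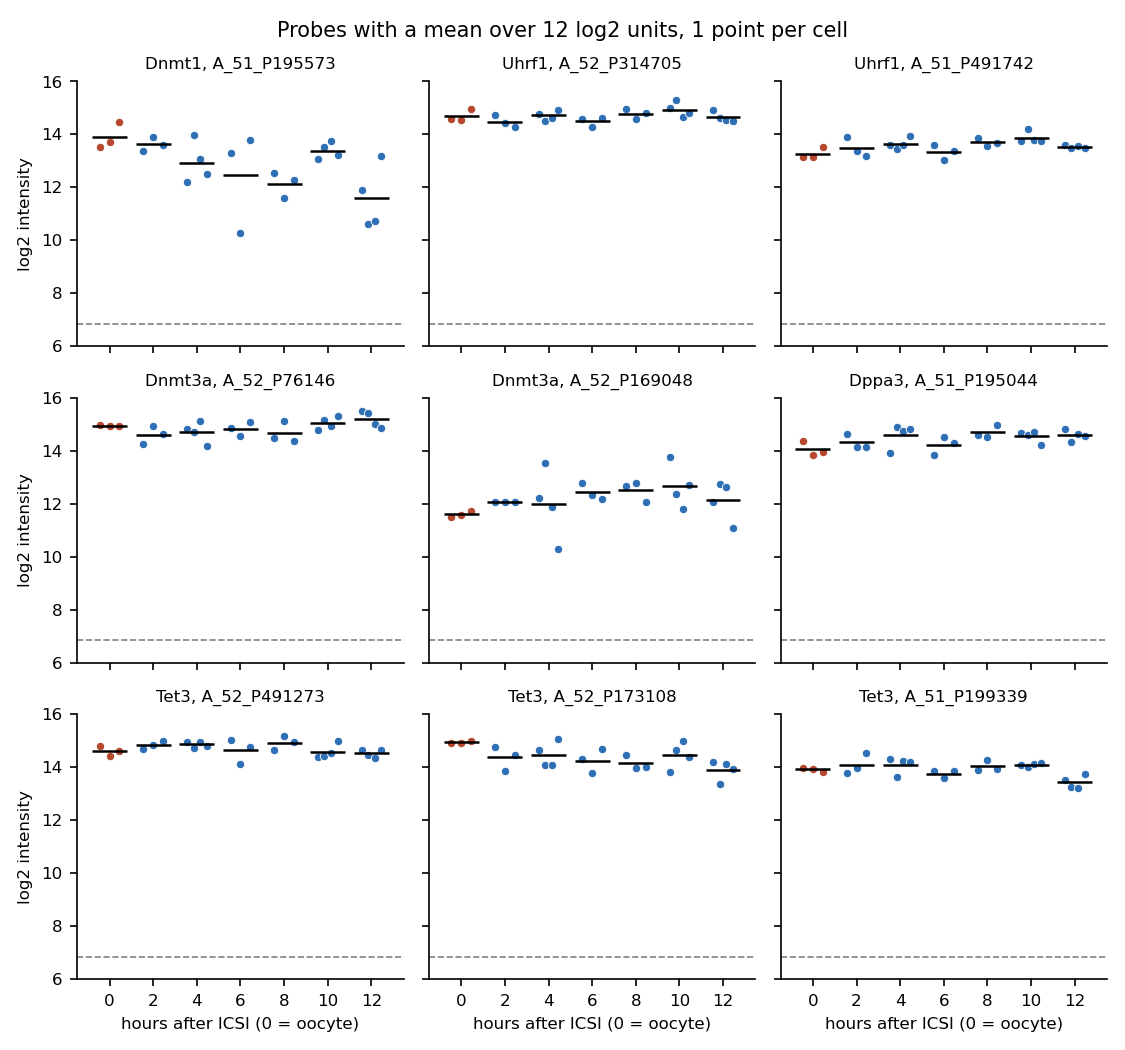
Log2 intensity against hours after ICSI for the 9 probes with a mean over 12, 1 point per cell, with oocytes in red, embryos in blue, black bars at the group means and the background of 6.85 as a dashed line. Dnmt1 spread from 10.30 to 14.49, while the Uhrf1, Dppa3 and Tet3 probes and Dnmt3a A_52_P76146 each stayed within 1.71 units over all 24 cells.

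Tet3, the oxidase that the oocyte supplies to the zygote, was bright on all 3 of its probes, whose differences from oocytes were unlike in size. Probe A_52_P173108 read 14.89, 14.91 and 15.00 in the oocytes and 14.18, 13.35, 14.12 and 13.95 at 12 h. No 12 h embryo reached an oocyte, and 19 of 21 embryos of all times lay below every oocyte. The oocyte SD on this probe was 0.06, and the share of all probes with such a count was not computed. The log2 change at 12 h was -1.04 with a 95% interval of -1.65 to -0.42, or 0.487 of the oocyte level, the lowest adjusted p of any member (limma, adjusted p = 0.105). In all embryos the change was -0.67 (95% interval -1.17 to -0.17, adjusted p = 0.283). With array weights, which give less weight to arrays that differ from their group, both differences passed (limma, adjusted p = 0.0151 and 0.0355). The oocyte arrays had the highest weights of all, 1.68 to 2.36, and the part of this in these calls was not tested. Over all alternatives the adjusted p at 12 h ran from 0.0151 to 0.268.

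Against oocytes, the changes of the other Tet3 probes at 12 h were smaller. Probe A_52_P491273 read 14.82, 14.41 and 14.62 in the oocytes and 14.66, 14.46, 14.33 and 14.64 at 12 h, with a log2 change of -0.09 and a 95% interval of -0.48 to 0.30, or 0.717 to 1.23 times the oocyte level. Up to 10 h, probe A_51_P199339 had group means between 13.76 ± 0.16 (SD, n = 3) at 6 h and 14.09 ± 0.32 (SD, n = 4) at 4 h. Its 10 h mean of 14.09 ± 0.06 (SD, n = 4) stood above the oocyte mean of 13.91 ± 0.08 (SD, n = 3). At 12 h the probe read 13.53, 13.25, 13.23 and 13.74. All 4 of these were below the 3 oocytes at 13.97, 13.95 and 13.82 and below the 4 embryos of 10 h. Its change was -0.48 from 0 h (95% interval -0.89 to -0.06, limma, adjusted p = 0.323) and -0.65 from 10 h to 12 h (95% interval -1.04 to -0.27, adjusted p = 0.297). Over the 24 arrays, A_52_P491273 and A_51_P199339 had a Pearson correlation of 0.60, A_52_P173108 and A_51_P199339 one of 0.40, and A_52_P491273 and A_52_P173108 one of 0.10. These values share arrays and amplified cDNA and are descriptions. Within the embryos the late minus early difference was below 0 on all 3 probes, at -0.30 (95% interval -0.56 to -0.03, limma, adjusted p = 0.380) for A_52_P491273, -0.33 (-0.61 to -0.04, adjusted p = 0.368) for A_51_P199339 and -0.24 (-0.66 to 0.18, adjusted p = 0.698) for A_52_P173108. A two-sided exact permutation test of 8 against 7 embryos gave an unadjusted p of 0.00839 for A_52_P491273, 0.101 for A_51_P199339 and 0.338 for A_52_P173108. This test was run on every member probe, for late against early embryos and for all embryos against oocytes. Its p-values are not adjusted for that number of tests, and the share of all probes at such a p was not computed.

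A difference between 2 probes of 1 gene on the same array leaves out what both share, and it was compared between oocytes and embryos for the 5 pairs of bright probes among the members, a comparison chosen after the values were seen. For Uhrf1, A_52_P314705 minus A_51_P491742 was 1.38 to 1.45 in the 3 oocytes and 0.85 to 1.31 in the 21 embryos. All 21 embryos were below every oocyte, with a mean shift of -0.35 (two-sided exact permutation test, unadjusted p = 0.000494, the smallest the 2024 splits can give). Such a complete split held for 1.07% of the 3839 pairs of bright probes of 1 gene over 2341 genes, and adjusted over those pairs p was 0.0903. For Tet3, A_52_P491273 minus A_52_P173108 was -0.51 to -0.08 in the oocytes and had a median of 0.54 in the embryos, 18 of which were above every oocyte (shift 0.77, exact permutation test, unadjusted p = 0.00741, adjusted over all pairs 0.257). A_52_P173108 minus A_51_P199339 was 0.92 to 1.17 in the oocytes and had a median of 0.32 in the embryos, 20 of which were below every oocyte (shift -0.67, exact permutation test, unadjusted p = 0.00692, adjusted over all pairs 0.257).

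The third Tet3 pair shifted by 0.11 (exact permutation test, unadjusted p = 0.522) and the Dnmt3a pair of A_52_P76146 and A_52_P169048 by -0.78 (exact permutation test, unadjusted p = 0.0810). The 3 pairs at an unadjusted p under 0.05, of 5, stand beside 10.7% of all pairs, and the 3 Tet3 pairs are not independent of each other, since they share probes. No pair of the 3839 passed after adjustment with this permutation test, and 411 did at an unadjusted p under 0.05. With 2024 splits this exact permutation p cannot fall below 0.000494. A pair could thus pass after adjustment only if many other pairs also sat at that bound, and this holds for the Uhrf1 pair too. Such a difference does not show which of the 2 probes changed. The oocyte arrays also had more distinct intensity values, 7580 to 7856, than any embryo array, the highest of which had 7531. The part of this in the differences between oocytes and embryos was not tested.

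**Figure D2:**
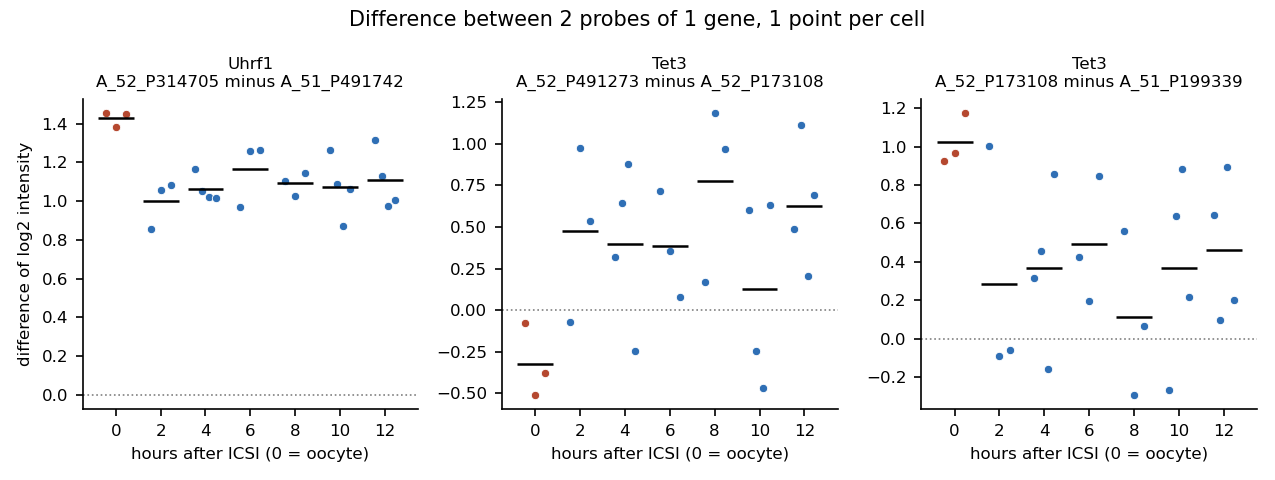
Difference of log2 intensity between 2 probes of 1 gene on the same array against hours after ICSI, 1 point per cell, with oocytes in red, embryos in blue and black bars at the group means; each panel has its own axis. The Uhrf1 difference was 1.38 to 1.45 in oocytes and at most 1.31 in embryos, and the Tet3 differences that use A_52_P173108 were set apart from the oocytes in 18 and 20 of 21 embryos.

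Dppa3 (A_51_P195044), which shields the maternal genome from Tet3, was high in every cell, from 13.83 to 14.98. The oocytes read 14.37, 13.83 and 13.96 and the 12 h embryos 14.83, 14.31, 14.63 and 14.56. Of the 4 embryos of 12 h, 3 were above every oocyte, as were 14 of 21 embryos over all times, with 1 below. The log2 change was 0.53 at 12 h (95% interval 0.06 to 1.01, or 1.04 to 2.01 times the oocyte level, limma, adjusted p = 0.336) and 0.44 in all embryos (95% interval 0.06 to 0.83, adjusted p = 0.410). The largest mean was 14.70 ± 0.24 (SD, n = 3) at 8 h, 0.65 above the oocytes (adjusted p = 0.244). Means of 4, 8, 10 and 12 h, between 14.55 and 14.70, differed by less than their SDs.

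Dnmt3a, a de novo methyltransferase, had 3 probes. The annotation assigns A_52_P76146 to another RefSeq transcript than the other 2. This probe read 14.99, 14.93 and 14.93 in the oocytes and 15.52, 15.45, 15.02 and 14.87 at 12 h, of which 3 were above every oocyte and 1 below. The log2 change from 0 h was 0.27 (95% interval -0.20 to 0.73, limma, adjusted p = 0.740). Within the embryos it was lower early, with 14.60 ± 0.33 (SD, n = 3) at 2 h and 14.71 ± 0.39 (SD, n = 4) at 4 h, than late, with 15.05 ± 0.23 (SD, n = 4) at 10 h and 15.21 ± 0.32 (SD, n = 4) at 12 h. The late minus early difference was 0.47 (95% interval 0.16 to 0.79), with an adjusted p of 0.217 in limma and an unadjusted p of 0.0115 in a two-sided exact permutation test of 8 against 7 embryos. As for Tet3, the permutation p is not adjusted for the number of member probes tested.

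The second Dnmt3a probe, A_52_P169048, read 11.49, 11.57 and 11.74 in the oocytes. Of 21 embryos, 19 were above every oocyte and 2 below, 4 h replicate d at 10.31 and 12 h replicate d at 11.09. Group means ran from 11.99 ± 1.33 (SD, n = 4) at 4 h to 12.66 ± 0.82 (SD, n = 4) at 10 h, and the difference of all embryos from oocytes was 0.70 with a 95% interval of -0.23 to 1.64 (limma, adjusted p = 0.681). Both probes had a Pearson correlation of 0.23 over the 24 arrays. The third probe, A_52_P30497, was dimmer, with 8.83, 8.70 and 8.86 in the oocytes, and was at 7.39 ± 0.72 (SD, n = 3) at 8 h, 9.16 ± 0.31 (SD, n = 4) at 10 h and 7.93 ± 0.60 (SD, n = 4) at 12 h, with 10 of 24 arrays over 2 units above background. None of these steps passed (limma, lowest adjusted p = 0.316, for 8 h to 10 h).

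In all, 4 of 18 probes (22.2%) had every 12 h embryo below every oocyte, the probes of Dnmt1, 2 of Tet3 and the dim probe of Dnmt3a, while 6.95% of all probes did. For 0 of 18 probes was every 12 h embryo above every oocyte, which held for 10.4% of all probes. These shares come from sets of unlike brightness. Of the 18 probes 11 had a mean over 2 units above background, against 28.9% of all probes. The differences between the shares were not tested. The median change at 12 h was -0.07 over the 18 probes and 0.05 over all probes.

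**Figure D3:**
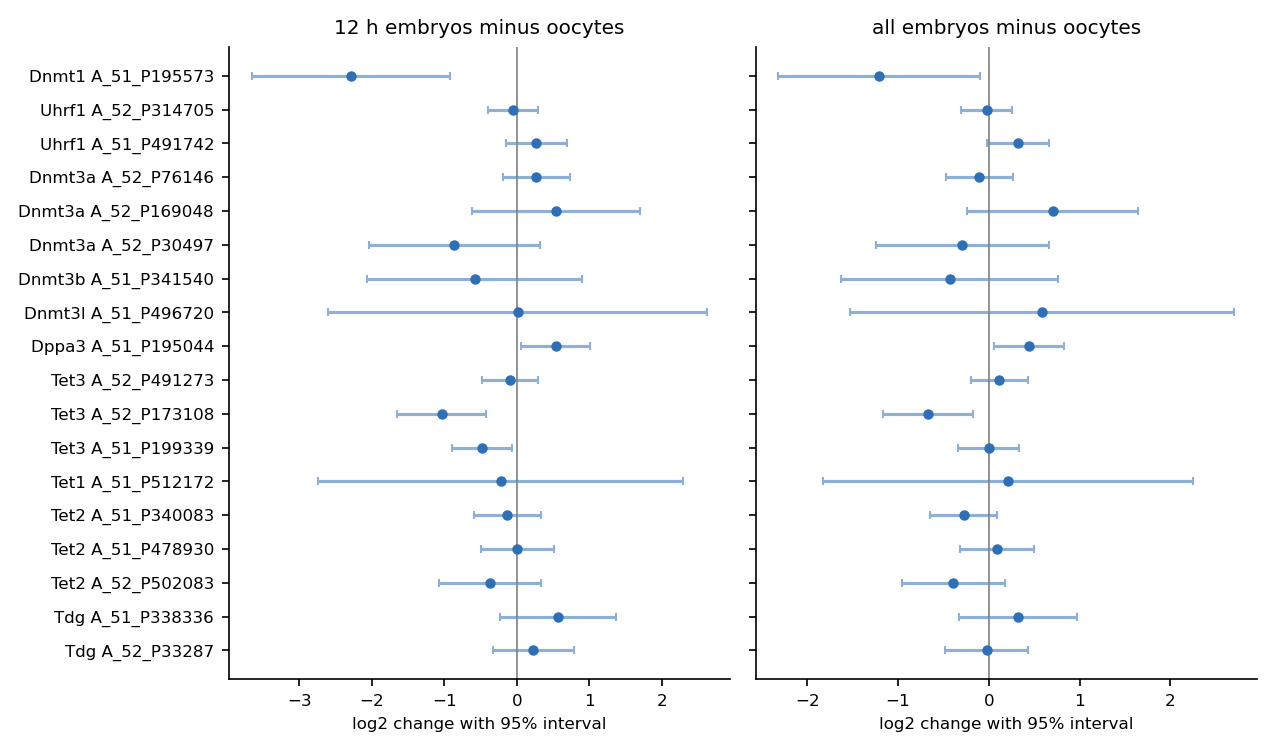
Log2 change with its 95% interval from the limma fit for each of the 18 probes, 12 h embryos minus oocytes on the left and all embryos minus oocytes on the right, with 0 as a grey line. The intervals of Dnmt1 (-3.66 to -0.92) and Tet3 A_52_P173108 (-1.65 to -0.42) lie farthest below 0 at 12 h, and those of Dnmt3l and Tet1 are the widest.

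Dnmt3l (A_51_P496720), a catalytically inactive partner of Dnmt3a and Dnmt3b, differed more between cells of the same time than between times. The oocytes read 10.02, 8.62 and 10.79. At 8 h the 3 embryos read 12.995, 8.31 and 12.20, and at 12 h the 4 embryos read 10.48, 7.46, 8.01 and 13.33. Each of these times thus held cells within 2 units of background and cells more than 5 units above it. The SD within a time was 1.79, against a median of 1.08 for the 2866 probes of like mean (within 0.5 units), and the log2 change at 12 h was 0.01 with a 95% interval of -2.60 to 2.63. On these 24 cells a change of several-fold in either direction would not have been detectable.

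Tet1 spread as widely. Its probe, A_51_P512172, was within 1 unit of background on 7 arrays and over 2 units above it on 11. The oocytes read 9.32, 7.15 and 9.53, and the highest cells were 4 h replicate c at 13.25, among embryos of its time at 8.36, 8.53 and 7.44, and 8 h replicate d at 12.70, beside 9.85 and 9.42. These 2 arrays also had the fewest distinct intensity values of all 24, 5309 and 5356, where oocyte arrays had 7580 to 7856, and the part of this in the Tet1 values was not tested. The SD within a time was 1.72, against a median of 1.09 for the 4207 probes of like mean. The log2 change at 12 h was -0.23 with a 95% interval of -2.74 to 2.29 (limma, adjusted p = 0.991).

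Dnmt3b (A_51_P341540), the other de novo methyltransferase, was detected but varied as probes of its level do. The oocytes read 11.01, 10.64 and 10.40 and the 12 h embryos 10.14, 9.46, 9.33 and 11.47, so the groups overlapped. Over all embryos it ranged from 8.24 to 12.03, and its SD within a time was 0.92 against a median of 1.06 for 2820 probes of like mean. The log2 change at 12 h was -0.58 (95% interval -2.06 to 0.90, limma, adjusted p = 0.873).

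Tet2, the third oxidase, had no probe over 2 units above background on any array. Its highest single value was 8.61, on A_52_P502083 in 4 h replicate b, and the means over all arrays were 7.02 for A_51_P340083, 6.96 for A_51_P478930 and 6.91 for A_52_P502083. Tdg, which excises oxidized methylcytosine, was at 8.05 ± 0.11 (SD, n = 3) in oocytes and 8.61 ± 0.59 (SD, n = 4) at 12 h on A_51_P338336, and this probe was over 2 units above background on 3 of 24 arrays. Its log2 change was 0.57 (95% interval -0.23 to 1.37, limma, adjusted p = 0.633). Of 21 embryos, 13 were above every oocyte and 5 below. Its other probe, A_52_P33287, had group means of 6.95 to 7.40. At such levels a low value bounds the signal of a probe and does not show that the mRNA is absent.

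**Figure D4:**
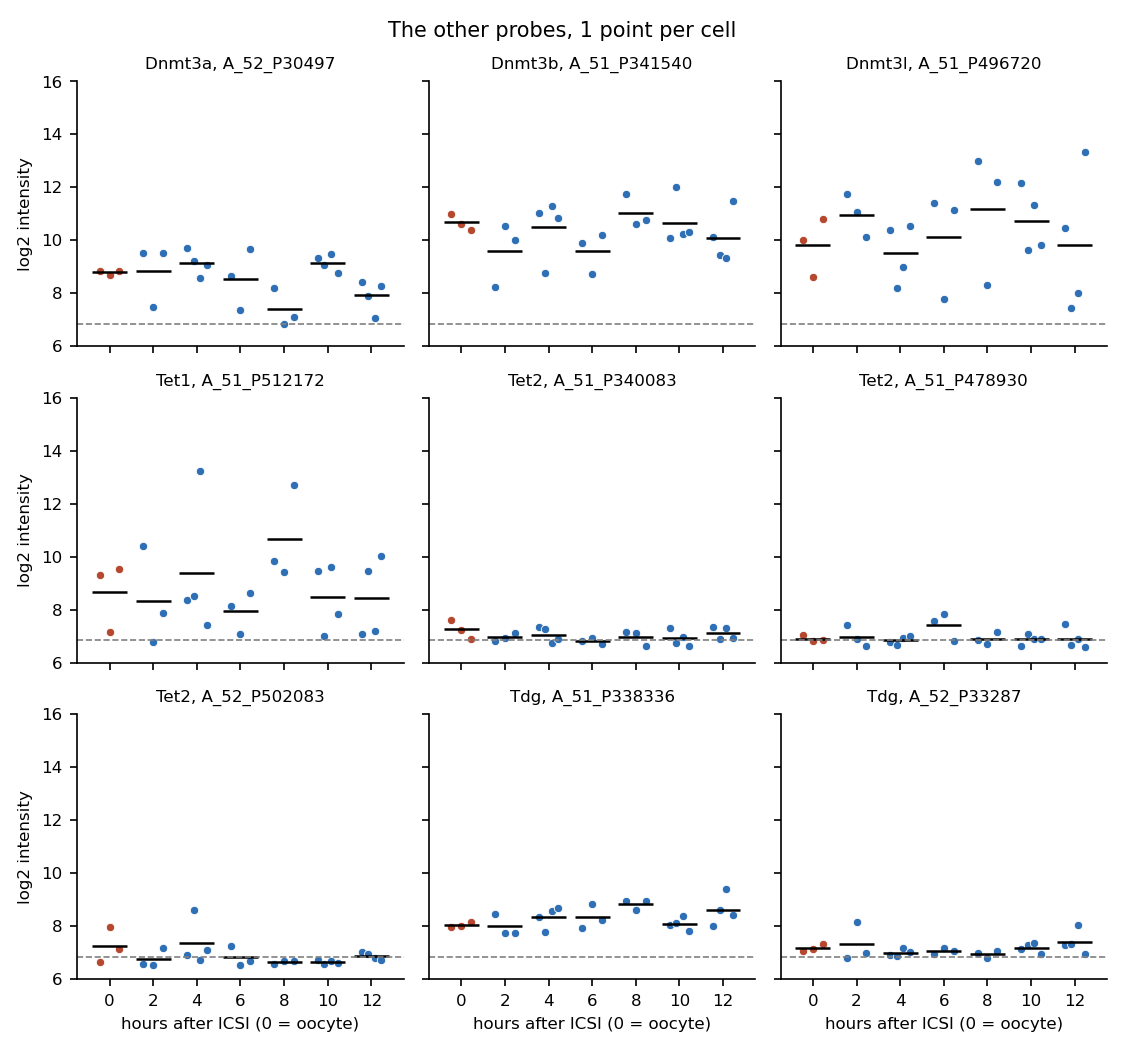
Log2 intensity against hours after ICSI for the other 9 probes, 1 point per cell, with oocytes in red, embryos in blue, black bars at the group means and the background of 6.85 as a dashed line. Dnmt3l and Tet1 ranged over 5.87 and 6.48 units between cells, and the Tet2 probes stayed near the background.

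**Figure D5:**
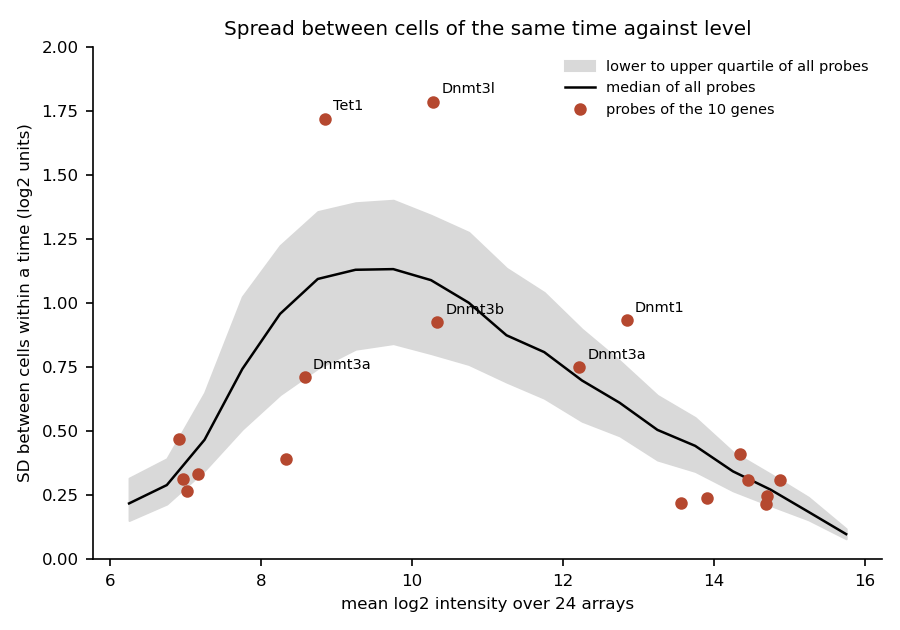
SD of log2 intensity between cells of the same time against the mean over 24 arrays, with the 18 probes as red points, the median of all probes as a line and the range from their lower to their upper quartile as a grey band. Dnmt3l at 1.79, Tet1 at 1.72 and Dnmt1 at 0.93 lie above the band, and both Uhrf1 probes, at 0.21 and 0.22, are below the line.

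Of the brightest probes, several varied less between cells of 1 time than is usual at their level. The SD within a time was 0.21 and 0.22 for the Uhrf1 probes, where the median of probes of like mean was 0.30 and 0.46, and it was 0.24 for Tet3 A_51_P199339, where it was 0.41. Dnmt1 was above its peers, with 0.93 against 0.58, as was Tet3 A_52_P173108 with 0.41 against 0.33. Dppa3, at 0.31 against 0.32, and Dnmt3a A_52_P76146, at 0.31 against 0.26, were close to theirs.

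Genes whose levels ran most like each member over the 24 arrays were taken from 7463 genes with a bright probe, as the 3 with the highest Pearson correlation, and these values were chosen for being high. Dppa3 had the closest, Enkd1 at 0.86, Eif4a1, an RNA helicase of translation initiation, at 0.83, and Zfp773 at 0.77. For Tet3 (A_52_P491273) they were Lrrfip1 at 0.76, Dctn5, a dynactin subunit, at 0.74, and Slc35f3 at 0.72. For Dnmt1 they were Iqgap3 and C2cd5, both at 0.73, and Huwe1, a ubiquitin ligase, at 0.72, and for Dnmt3a Bank1 and Plekhg1, both at 0.73, and Gnl3, a nucleolar GTPase, at 0.71. Uhrf1 went with Prr14l at 0.71 and with 1600002D24Rik and Spin1, a reader of histone methylation, both at 0.69. Dnmt3b went with Khdc4 at 0.71, Ercc6l2 at 0.68 and Ceacam20 at 0.64, and Dnmt3l with Mapk9, a stress-activated kinase, at 0.64, Krtap4-6 at 0.63 and Zscan18 at 0.62. Among the members themselves, the 2 Uhrf1 probes had a correlation of 0.80, and Dnmt1 and Tet3 A_52_P173108 one of 0.56. All of these share arrays and amplification.

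Of 75 further genes of the pathway, 68 were measured, each by its brightest probe, and 42 of them were over 2 units above background. None was called in either direction by limma in all embryos against oocytes, where 0.159% of all genes were called higher and 0.727% lower, and none at 12 h, where the shares were 0.333% and 0.932%. At an unadjusted p under 0.05 in limma there were 11 of 68 in all embryos and 14 of 68 at 12 h. Over all probes, rather than genes, the shares at that level were 9.60% and 11.9%. The median change was -0.13 in all embryos and -0.04 at 12 h, beside 0.10 and 0.08 over all genes. Among partners of maintenance and de novo methylation, Zfp57, which guards methylation at imprinted loci, was at 14.75 ± 0.14 (SD, n = 3) in oocytes and 15.04 ± 0.10 (SD, n = 4) at 12 h, and Setdb1, a histone methyltransferase, at 14.01 ± 0.14 and 14.12 ± 0.25. Of the methyl-CpG readers, Mbd2 was at 10.65 ± 0.55 and 11.30 ± 1.77 and Mbd3 at 9.32 ± 0.11 and 9.99 ± 0.54.

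Of the genes that act with Tet enzymes, Ddb1 and Cul4b, parts of a ubiquitin ligase, were at 14.30 ± 0.23 and 13.90 ± 0.23 (SD, n = 3) in oocytes and 14.22 ± 0.50 and 13.75 ± 0.29 (SD, n = 4) at 12 h. In methyl donor supply, Mat2b, the regulatory subunit of methionine adenosyltransferase, was at 15.25 ± 0.13 and 15.13 ± 0.27, and Mtr, methionine synthase, at 12.68 ± 0.30 and 11.70 ± 1.61. The Elongator subunits Elp2 and Elp4 were at 12.18 ± 0.33 and 10.69 ± 0.59 in oocytes and at 12.81 ± 1.12 and 8.96 ± 0.80 at 12 h. Nlrp14, which in mouse helps to keep Uhrf1 stable, was at 13.71 ± 0.44 and 13.85 ± 0.61, and the importin Ipo5 at 10.77 ± 0.44 and 10.06 ± 0.63. None of these differences passed the threshold in limma.

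Base excision held the genes nearest to a call. Neil3, a DNA glycosylase, was at 13.50 ± 0.26 (SD, n = 3) in oocytes and 13.02 ± 0.79 (SD, n = 4) at 12 h. Lig1, the DNA ligase of replication and repair, was at 11.26 ± 0.47 and 12.83 ± 0.54, a log2 change of 1.57 (SE 0.43, limma, adjusted p = 0.0867). Xrcc1, a scaffold of single-strand break repair, was at 12.32 ± 0.60 and 8.42 ± 1.66, a change of -3.90 (SE 0.97, adjusted p = 0.0548), and it was named for its low p after the values were seen. Its call depended on the settings: with 1 probe per gene the adjusted p was 0.0440 and with the upper 60% of probes 0.0363.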

How the data were processed

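The deposited values are scores of 1 probe on 1 array, made by the authors with limma, per the submitters' processing notes, which give no version. Neither a background correction nor a scanner is stated there. The mRNA of a single cell was caught on oligo-dT beads, copied, tailed and amplified by PCR with 1 primer, per the labels' protocols. The protocols give digoxigenin as the label of the samples and biotin as that of a reference, but each array's own label is biotin, and which of them the deposited scores hold is not settled.

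The scores were turned back to intensity as a natural log of a natural log, divided by 0.225, with a score of 0 at an intensity of 51.5. The result was checked on the steps of the values: 23707 levels lay on multiples of 1/48 intensity unit, with a largest residual of 0.0013 units. All tests ran on log2 of this intensity. Array medians were 7.39 to 7.42, as between-array normalization leaves them, so a value is relative to the rest of the mRNA of a cell.

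Limma 3.58.1 in R 4.3.3 fitted 1 mean per time to all 24 arrays (lmFit, eBayes with trend), with Benjamini-Hochberg adjustment over 41174 probes in each comparison and a threshold of 0.05. The fit was tested on simulated data. The annotation gave 1 symbol for 32664 probes, several for 45 and none for 8465, and 32524 matched RefSeq GRCm38.p6 by Entrez number. The genes, the 75 further pathway genes and the markers were chosen with earlier results of these data known. Every probe of the 10 genes is named, and of the pathway list the 2 brightest uncalled genes of each of its parts. Replicate letters recur across times and were not used as a block. Alternatives covered the scale, 1 probe per gene, a filter on dim probes, the trend, weights, normalization, the block and leaving out arrays.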

Additional observations from a re-analysis of the deposited data

Results flagged for a closer look

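In 3 of 54 groups of 4 cells and 1 probe, 1 cell stood far from the other 3, where chance gives about 1 in 20 groups. The 10 h replicate b read 14.20 for Uhrf1 on A_51_P491742, with the other 3 embryos of 10 h at 13.74 to 13.79, and 12.03 for Dnmt3b, with the others at 10.09 to 10.33. For Dppa3 the 4 h replicate a read 13.92, below the others at 14.76 to 14.89.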

How the results depend on the processing

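Counts of called members were 0 in every one of up to 33 alternatives for each time from 2 to 10 h against 0 h, for consecutive times, for late against early embryos and for the F-test. For 12 h against 0 h the count became 2 with array weights (Dnmt1 and Tet3 A_52_P173108) and ranged from 0 to 1 with single arrays left out, and for all embryos it became 1 with array weights (Tet3 A_52_P173108) and was 0 with single arrays left out. The further pathway genes called in all embryos became 7 with array weights and 0 to 1 with single arrays left out; those at 12 h became 5 with array weights, 1 with 1 probe per gene, 1 with the upper 60% of probes and 0 to 2 with single arrays left out. The cause was not tested, except that the upper 60% and 1 probe per gene leave fewer tests. With the replicate letter as a block, the Dnmt1 change at 12 h was -2.18 (limma, adjusted p = 0.147) and that of Tet3 A_52_P173108 -0.92 (adjusted p = 0.140), and the block changed no count. Over 11897 bright probes, deviations from the time means correlated at -0.16 to 0.24 (median 0.02) in 62 pairs of arrays that shared a letter. In 184 pairs that did not, the median was -0.0060. For 11 of 24 arrays the mean correlation with arrays of other times was highest for their own letter. The number that chance would give was not computed, so this is at most a hint from the data and not the design. Without the 4 arrays least like the others, a setting chosen after seeing the data, the adjusted p of Dnmt1 was 0.281. With all 24 arrays kept, the mean over the 3 Tet3 probes changed by -0.54 at 12 h against 0 h. Permutation tests over arrays gave unadjusted p of 0.0657 for Dnmt1 and 0.0479 for Uhrf1 A_51_P491742 in all embryos and 0.101 for Tet3 A_51_P199339 in late against early embryos, where limma's unadjusted p were 0.0339, 0.0605 and 0.0260. Without 0 h replicate c, the shift between Tet3 A_52_P491273 and A_51_P199339 turned to -0.015 from 0.11, neither past the threshold (-0.015 to 0.18 with single arrays left out), and that between A_52_P491273 and A_52_P173108 was 0.68 (exact permutation p = 0.0593). The Uhrf1 shift stayed between -0.37 and -0.33 in 26 alternatives on log2 intensity. Few cells per time limit all of this: the 12 h intervals of Dnmt3l and Tet1 cover changes of over 4-fold either way.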
